A study of Rattus norvegicus with 45 samples.

Results

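Frontal cortex of rats that received risperidone was compared with frontal cortex of rats that received vehicle, gene by gene over the whole array. The arrays were chosen by their labels: 5 of risperidone rats and 5 of vehicle rats, which make up 10 of the 45 arrays of the series. In the study, frontal cortex, hippocampus and striatum of 15 male Sprague-Dawley rats were profiled on Affymetrix rat arrays, with 5 rats per treatment. Pumps under the skin delivered risperidone at 5 mg/kg/d, haloperidol at 0.25 mg/kg/d or vehicle, which was dilute acetic acid in water, for 21 days, and the rats were 9 to 11 weeks old when the pumps were placed. All rats were of 1 sex and strain, and each drug was given at 1 dose. The rat numbers in the labels run in blocks by treatment, from 52 to 60 for risperidone and from 32 to 36 for vehicle, so that anything that followed the order of the rats cannot be told apart from the treatment.

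Risperidone is an antipsychotic that blocks dopamine and serotonin receptors, and to a lesser degree adrenergic and histamine receptors. In frontal cortex these receptors tune how pyramidal neurons and interneurons respond to glutamate, and part of that tuning runs through cAMP, calcium and ERK signaling. Immediate early genes such as Fos and Egr1 are switched on by these pathways when neurons fire, so that their mRNA is often read as a trace of recent activity. A block of frontal cortex lies between the olfactory bulb and the striatum, and in bulk tissue fewer cells of a type and less RNA per cell cannot be told apart.

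Values below are log2 of the deposited intensities. Of 31099 probe sets on the array, 18609 were bright enough to be tested, and they cover 10248 genes. Cux2, a factor of upper cortical layers, averaged log2 8.19 in frontal cortex, 6.67 in hippocampus and 5.64 in striatum. Slc17a7, the vesicular glutamate transporter of cortical pyramidal neurons, averaged 11.11 in frontal cortex, 11.74 in hippocampus and 7.87 in striatum. Of the other cortical neuron markers, Tbr1, Nrgn and Rorb were highest in frontal cortex. Neurod6, Camk2a and Fezf2 were highest in hippocampus, and Foxp2 in striatum (9.42, against 6.66 in frontal cortex). The median intensity of an array was 91.6 to 93.1 in risperidone rats, 90.2 to 91.6 in haloperidol rats and 89.9 to 92.5 in vehicle rats. Any pair of the frontal cortex arrays correlated at 0.9634 to 0.9939 over the probe sets. The difference between probe sets for the 3′ and 5′ ends of control transcripts overlapped among the treatments, for example 1.00 to 1.22 for beta-actin in risperidone rats and 1.09 to 1.17 in vehicle rats. The risperidone rats varied more among themselves than the vehicle rats, with a median standard deviation per probe set of 0.137 against 0.0993. Without replicates 2 and 5 it was 0.0993 in risperidone rats too.

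Markers of neighboring tissue were high in some of the blocks. The mean of 11 markers of the olfactory bulb and its neuroblasts was log2 7.87, 9.82, 8.23, 7.82 and 9.42 in risperidone rats 1 to 5, against 7.80, 7.68, 7.79, 7.74 and 7.68 in vehicle rats 1 to 5. Replicates 2 and 5 thus stood far above all other risperidone and vehicle rats. Replicate 3, at 8.23, was next and also lay above every vehicle rat. It stays in the version without replicates 2 and 5, so that version is not free of bulb markers. The most specific markers went the same way, since Cdhr1, a cadherin of mitral cells, stood at 11.23 and 10.91 in risperidone replicates 2 and 5 and between 5.65 and 6.95 in vehicle rats. In risperidone replicate 3 it stood at 8.02. Haloperidol replicate 5 was also high, with a marker mean of 8.82. Risperidone replicate 1 differed in another way, with 14 markers of striatal projection neurons at a mean of 8.52, where the other risperidone rats had 7.69 to 7.87 and the vehicle rats 7.52 to 7.98. The dopamine receptor Drd2 reached 6.91 in that rat and at most 5.99 in vehicle rats, and Adora2a, the adenosine receptor of striatal neurons, reached 7.07 against at most 6.07. The main counts and the genes the results turn on are therefore given with all arrays and without risperidone replicates 2 and 5. The second version holds 3 risperidone rats, so a call can be lost there without a smaller change.

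**Figure D1:**
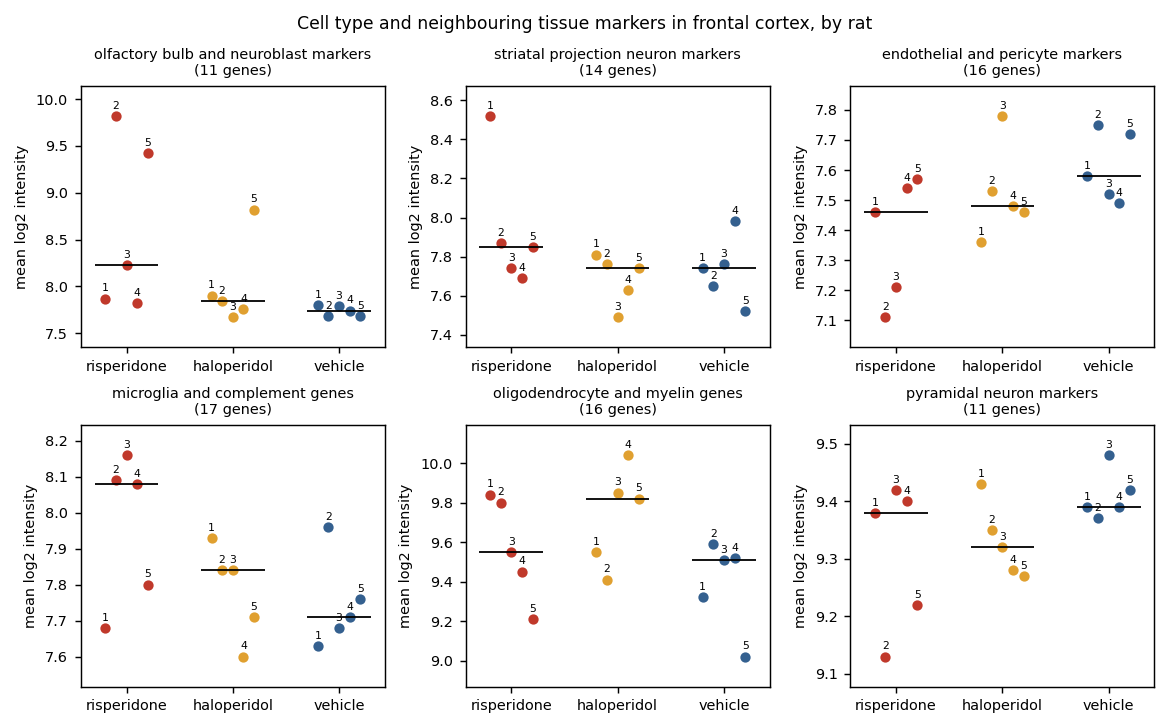
Mean log2 intensity (vertical axis) of 6 marker lists in frontal cortex, for each rat by treatment (horizontal axis). Each point is 1 rat with its replicate number, and the horizontal line is the median of 5 rats. Risperidone replicates 2 and 5 lie above 9.4 for olfactory bulb markers, and the vehicle rats lie at or under 7.80.

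Across all genes, the change was broad and small in size. Of 10248 genes, 227 (2.22%) were higher and 203 (1.98%) were lower in risperidone rats than in vehicle rats, at an adjusted p under 0.05 from limma and at least a 1.2-fold change of any probe set. In terms of probe sets, 281 (1.51%) were higher and 351 (1.89%) lower, so that 44.5% of the 632 calls (3.4%) were higher. With the arrays centered on their medians 28.2% of calls were higher, and with quantile normalization of the frontal cortex arrays 30.5%. Without replicates 2 and 5, 94 genes (0.917%) were higher and 115 (1.12%) lower, or 112 (0.602%) and 172 (0.924%) of the probe sets. In both versions, 61 genes were higher and 90 lower, while 279 were called with all arrays only and 58 without these rats only. No probe set was called in opposite directions by the 2 versions. In 108 of the 227 higher genes all risperidone rats lay above all vehicle rats, and in 124 of the 203 lower genes all lay below. Over all genes, 4.23% were separated upward and 2.83% downward in this way, and over all probe sets 2.86% and 2.77%. Of 185 called genes with more than 1 probe set, 152 had 1 probe set called and 19 had all of them called. Another 445 probe sets had an adjusted p under 0.05 with a change under 1.2-fold.

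**Figure D2:**
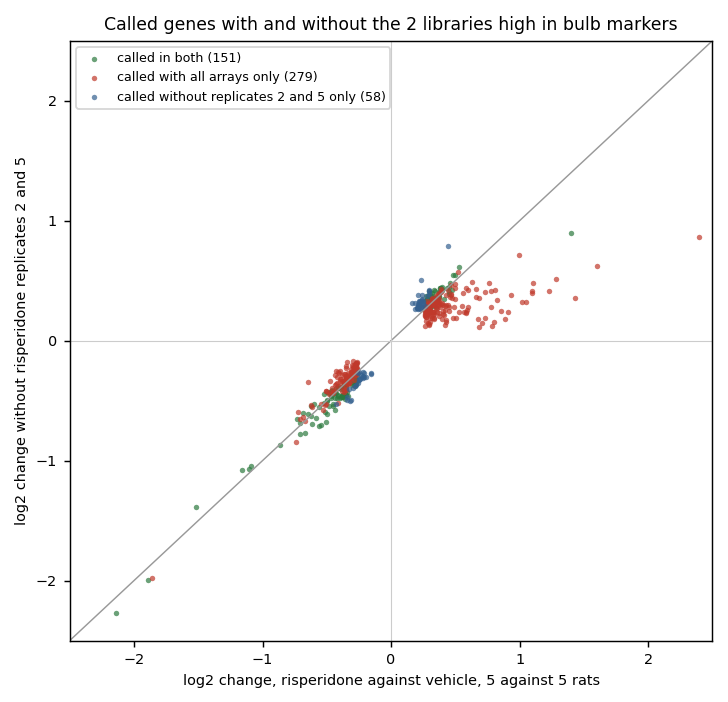
Log2 change of each called gene in frontal cortex, risperidone against vehicle, with all 5 risperidone rats (horizontal axis) and without replicates 2 and 5 (vertical axis). Points are genes, colored by the version in which they were called; the diagonal marks equal change. The 279 genes called with all arrays only include the largest rises, such as Cdhr1 at 2.40 and 0.87; of the 151 genes called in both, Kcnj16 stands off the diagonal at 1.40 and 0.90.

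The largest rises followed the rats with olfactory bulb RNA: in each of the 12 genes that rose most, risperidone replicates 2 and 5 were the highest rats. Cdhr1 had log2 6.75, 11.23, 8.02, 6.84 and 10.91 in risperidone rats 1 to 5, against 6.95, 5.65, 6.95, 6.24 and 5.98 in vehicle rats. The groups overlapped, and the change of 2.40 (standard error 0.58, adjusted p = 0.0130 from limma) was 0.87 without replicates 2 and 5 (adjusted p = 0.290). Without replicate 2 alone it was 1.78 (adjusted p = 0.0583). Pbx3 and Meis1, homeobox factors of bulb interneurons, Calb2, which encodes calretinin, and Shisa8, an auxiliary protein of AMPA receptors, rose by 1.09 to 1.60 and changed by 0.36 to 0.62 without the 2 rats, with no call left. Across the 12, which also held Slc35d3, Pcp4l1, Krt71, Ptpro, Myo16 and Mgst1, the changes of 1.00 to 2.40 became 0.32 to 0.90, and 5 of the 12 were called without each of the 10 rats in turn. Of the 7 others, 6 had their highest adjusted p without risperidone replicate 2 (0.0583 to 0.111) and Mgst1, a microsomal glutathione transferase, without vehicle replicate 1 (0.0957). Of the 11 measured bulb markers, 8 rose with all arrays and 0 without replicates 2 and 5, where 2.22% and 0.917% of all genes rose. Replicates 2 and 5 were set apart by these same markers, so this loss of calls follows from the choice of rats and tests nothing. The part of bulb tissue in the other results was not tested beyond leaving these rats out and a covariate reported under the processing.

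Kcnj16 was the only one of these 12 genes that was called without the 2 rats. It encodes Kir5.1, an inwardly rectifying potassium channel subunit that pairs with Kir4.1 in glia and in some neurons. It had log2 6.03, 7.60, 6.57, 6.09 and 7.22 in risperidone rats, against 5.39, 5.15, 4.90, 5.70 and 5.37 in vehicle rats. All risperidone rats lay above all vehicle rats. Replicates 2, 5 and 3 were the highest, in that order, as they were for the bulb marker mean. The change was 1.40 (standard error 0.25, adjusted p = 0.00102), or 2.64-fold, and 0.90 without replicates 2 and 5 (adjusted p = 0.0349). Kcnj16 was not called with the bulb marker mean as a covariate over the frontal cortex arrays, where 3 probe sets were called higher. In haloperidol rats the mean was 5.85 ± 0.27 (SD, n = 5), between 6.70 ± 0.69 in risperidone rats and 5.30 ± 0.30 in vehicle rats.

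Genes outside the activity, clock and bulb lists that were called in both versions numbered 59 higher and 75 lower. They had changes of moderate size, and the strongest by adjusted p were Mcm7 and Pik3ip1. Mcm7, a subunit of the helicase that unwinds DNA for replication, had log2 7.98, 8.09, 8.05, 7.85 and 8.18 in risperidone rats, against 7.62, 7.76, 7.58, 7.56 and 7.56 in vehicle rats. It rose by 0.41 (adjusted p = 1.05e-04), or 0.34 without replicates 2 and 5, which were its highest rats, and the lowest risperidone rat stood above the highest vehicle rat. Pik3ip1, which inhibits PI3 kinase at the membrane, had 7.76, 8.04, 7.73, 7.66 and 7.72 in risperidone rats, against 7.31, 7.38, 7.30, 7.39 and 7.28 in vehicle rats. Its rise of 0.45 (standard error 0.07, adjusted p = 1.10e-04), or 0.39 without the 2 rats, was far larger than the spread of 0.05 among vehicle rats (SD, n = 5). Id4, a helix-loop-helix protein that blocks other transcription factors from binding DNA, had 8.06, 8.31, 8.59, 8.08 and 8.14 in risperidone rats, against 7.83, 7.76, 7.75, 7.86 and 7.78 in vehicle rats. Here replicate 3, the next after 2 and 5 in bulb markers, was the highest rat. Id4 rose by 0.44 in both versions (adjusted p = 8.07e-04 with all arrays), and 3 of its 4 probe sets were called. Mcm7, Pik3ip1 and Id4, like Kcnj16, were not called with the bulb marker mean as a covariate.

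P2rx4, an ion channel opened by extracellular ATP, rose too, with the rats in another order than for the bulb markers. It had log2 7.74, 7.73, 7.32, 7.55 and 7.07 in risperidone rats, against 7.02, 6.95, 6.97, 6.74 and 7.06 in vehicle rats. Replicate 5, 1 of the pair with most bulb RNA, was the lowest risperidone rat, and it lay just above the highest vehicle rat. The rise was 0.53 with all arrays (adjusted p = 0.0131) and 0.61 without replicates 2 and 5 (adjusted p = 0.0250). Bace2, a protease related to the enzyme that starts amyloid cleavage, rose by 0.45 (0.48 without the 2 rats) with overlap through vehicle replicate 1, and Chrac1, a histone-fold protein of a chromatin remodeling complex, rose by 0.45 (0.445 without) with separated groups. Gfpt2, which starts the synthesis of hexosamines from fructose phosphate, rose by 0.45 (0.40 without) and was separated in all rats. Gfer, a sulfhydryl oxidase of the mitochondrial intermembrane space, rose by 0.40 (0.425 without, adjusted p = 0.00357 with all arrays) with overlap between the groups. Mlf2 was high in all risperidone rats, at 10.38 to 10.75, but vehicle replicate 3 stood at 10.41 and the groups overlapped. Tmem268 and C10h17orf58, whose roles are less known, rose by 0.40 and 0.47 (0.44 and 0.42 without) with separated groups. In 9 of the 12 genes with the largest rise in this class the groups did not overlap, and all 12 were called without each of the 10 rats in turn. Over all genes 4.23% were separated upward. The 12 were chosen by their calls in both versions and the size of their rise, so these counts describe them and test nothing.

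Of the 12 genes that fell most, 7 were genes induced by neuronal activity. Egr2, a zinc finger transcription factor, had log2 6.77, 6.94, 5.82, 5.95 and 6.04 in risperidone rats, against 8.12, 8.23, 8.79, 8.27 and 8.80 in vehicle rats. The change of -2.14 is a 4.41-fold fall, and it was -2.27 without replicates 2 and 5. Fos had 7.86, 7.95, 6.94, 6.43 and 6.91 in risperidone rats, against 9.16, 8.63, 9.46, 8.83 and 9.45 in vehicle rats. In both genes the risperidone and vehicle ranges were separate, and replicates 1, with striatal markers, and 2, with bulb markers, were the highest of the risperidone group. Of 14 measured immediate early transcription factors 9 fell (8 without the 2 rats), with a median change of -0.48 where the median over all genes was 0.03. For this and the next lists, 1.98% of all genes fell and 2.22% rose, or 1.12% and 0.917% without the 2 rats. Of 17 activity-induced effectors 4 fell, namely Homer1, Arc, Ptgs2 and the secreted neuropeptide precursor Vgf, and Bdnf was not called. Vgf was not called without replicates 2 and 5 (-0.34, adjusted p = 0.131) or in 4 of 10 fits that left out a rat, reaching an adjusted p of 0.0806 when risperidone replicate 2 was absent. Of 8 ERK feedback regulators Dusp6 and Etv5 fell. Arc, which moves AMPA receptors away from the synapse, overlapped between the groups, since risperidone replicate 1 had 8.16 and vehicle replicate 4 had 8.08. Ptgs2, the inducible cyclooxygenase, had 8.06, 8.18, 8.30, 7.96 and 7.70 in risperidone rats, against 9.03, 8.97, 9.11, 9.26 and 9.28 in vehicle rats, a fall of 1.09 with no overlap (log2 change -1.09, adjusted p = 1.84e-04). Of 13 clock repressors and outputs, Dbp and Nr1d1 rose by 0.48 and 0.39 and Per2 and Hlf fell by 0.56 and 0.44 (log2 changes -0.56 and -0.44), and Hlf was not called without replicates 2 and 5 (adjusted p = 0.190).

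Sncg, which encodes gamma-synuclein and is on no activity list, had the next largest fall after Egr2 and Fos. It had log2 5.67, 5.48, 5.80, 5.71 and 7.26 in risperidone rats, against 7.38, 7.40, 7.99, 7.55 and 8.89 in vehicle rats. Replicate 5 was the highest rat of each group, and the groups did not overlap. The change was -1.86 (standard error 0.49, adjusted p = 0.0206), and it was -1.98 and not called without risperidone replicates 2 and 5 (adjusted p = 0.0533). Its call was also lost in 2 of 10 fits that left out a rat, with an adjusted p of 0.0621 when vehicle replicate 5 was absent. Acyp2, an acylphosphatase, changed by -0.74 with overlapping groups (-0.85 and adjusted p = 0.0561 without replicates 2 and 5), and lost its call in 8 of 10 such fits (adjusted p of 0.107 when vehicle replicate 1 was absent).

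The promoters of activity-induced genes are shown because cAMP and calcium signals reach many of them through CREB, a factor that binds TGACGTCA or the shorter TGACG. Sequences came from RefSeq on GRCr8 and cover the 250 bases before each gene's start; 36 of the 46 genes named for the size of their change had an entry. The letters TGACG, or CGTCA on the other strand, occurred in 8 of 18 promoters of genes that fell and in 3 of 18 of genes that rose, and in 19.0% of all 27457 promoters. Among the 8, Egr1, Egr2 and Nr4a1 are on the activity lists, and Cxcl12, Snhg11, Pik3ca, Klhl2 and Larp4b are not. Homer1 and Ptgs2, also activity genes, held no TGACG, and Fos and Arc had no entry. TGACGTCA occurred in 0 of these 36 and in 1.7% of all. The E-box CACGTG, the site of clock factors, occurred in 1 of 18 promoters of genes that fell, that of Ptgs2, in 0 of 18 of genes that rose and in 5.79% of all. A match is a run of letters, and binding was not measured. In the 4 promoters below, the 250 bases run 5′ to 3′ toward the start, and capitals mark TGACG or CGTCA and, in Ptgs2, CACGTG. Nr4a1 held 4 of the short runs and Egr1 held 2.
Nr4a1, chr7:134259888-134260137, plus strand: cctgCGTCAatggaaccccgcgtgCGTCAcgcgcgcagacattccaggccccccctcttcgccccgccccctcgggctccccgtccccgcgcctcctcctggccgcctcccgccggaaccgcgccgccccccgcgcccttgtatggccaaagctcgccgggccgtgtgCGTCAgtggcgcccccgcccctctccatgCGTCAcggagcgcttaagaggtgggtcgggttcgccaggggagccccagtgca
Egr1, chr18:26736828-26737077, plus strand: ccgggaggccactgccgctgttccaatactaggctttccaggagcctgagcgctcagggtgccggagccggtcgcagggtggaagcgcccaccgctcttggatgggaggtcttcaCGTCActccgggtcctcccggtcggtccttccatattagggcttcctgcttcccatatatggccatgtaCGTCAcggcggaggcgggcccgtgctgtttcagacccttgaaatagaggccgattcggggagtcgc
Egr2, chr20:21054442-21054691, minus strand: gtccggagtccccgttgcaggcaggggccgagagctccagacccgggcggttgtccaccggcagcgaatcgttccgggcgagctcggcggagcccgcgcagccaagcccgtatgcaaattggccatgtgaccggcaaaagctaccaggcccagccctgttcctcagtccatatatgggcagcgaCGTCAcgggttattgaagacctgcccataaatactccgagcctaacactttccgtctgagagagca
Ptgs2, chr13:64713813-64714062, plus strand: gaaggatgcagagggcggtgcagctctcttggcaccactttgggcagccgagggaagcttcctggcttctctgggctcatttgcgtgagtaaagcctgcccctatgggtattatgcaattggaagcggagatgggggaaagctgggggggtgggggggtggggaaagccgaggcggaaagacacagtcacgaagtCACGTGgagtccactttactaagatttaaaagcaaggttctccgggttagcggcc

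The lower genes outside the activity and clock lists included signaling enzymes, channel partners and receptors. Irs2, the adaptor that links insulin receptors to PI3 kinase, had log2 8.15, 7.91, 7.93, 7.97 and 8.04 in risperidone rats, against 8.35, 8.44, 8.58, 8.49 and 8.45 in vehicle rats. The groups were separated, and the change of -0.46 (standard error 0.07, adjusted p = 9.01e-05) hardly moved without replicates 2 and 5 (-0.46). Pik3ca, the catalytic subunit of PI3 kinase, fell by 0.61 (log2 change -0.61, adjusted p = 0.00798) by 1 of its 6 probe sets, while the others ranged from -0.19 to 0.10 and were not called. With Pik3ip1 above, 1 of 28 measured genes of insulin and PI3 kinase signaling was called higher and 2 lower, where 2.22% and 1.98% of all genes were, at a list median of 0.01. Rock2, a kinase that acts on the actin cytoskeleton, had 7.50, 7.17, 7.26, 7.30 and 7.26 in risperidone rats, against 7.79, 7.73, 7.89, 7.80 and 7.86 in vehicle rats. It fell by 0.52 with separated groups (log2 change -0.52, adjusted p = 0.00276, and -0.45 without replicates 2 and 5), by 3 of 4 probe sets. Rapgef4, an exchange factor for Rap that cAMP activates directly, had 10.81, 10.82, 11.08, 11.06 and 10.50 in risperidone rats, against 11.37, 11.70, 11.27, 11.41 and 11.66 in vehicle rats. Its log2 change was -0.63, or 1.54-fold lower, with no overlap, and -0.54 without replicates 2 and 5. Rap2c, a small GTPase of the Rap family, also fell, by 0.53 (log2 change -0.53, adjusted p = 0.0115, and -0.52 without the 2 rats), with overlap between the groups.

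Pex5l, which binds and moves the HCN channels of dendrites, had log2 6.29, 5.88, 6.63, 6.55 and 6.77 in risperidone rats, against 6.96, 7.52, 7.07, 7.0 and 7.24 in vehicle rats. No risperidone rat reached the vehicle range, and the log2 change was -0.73 (adjusted p = 0.00378), or -0.65 without replicates 2 and 5. Gria3, a subunit of AMPA receptors, had 9.92, 9.64, 9.79, 10.03 and 10.01 in risperidone rats, against 10.47, 10.27, 10.12, 10.36 and 10.23 in vehicle rats. It fell by 0.41 by both of its probe sets (log2 change -0.41, adjusted p = 0.00225, and -0.38 without replicates 2 and 5). Neto1, an auxiliary subunit of kainate receptors, fell by 0.67 with separated groups (log2 change -0.67), but its call was lost without vehicle replicate 1 (adjusted p = 0.0528). Cttnbp2, a protein of dendritic spines, fell by 0.56 (log2 change -0.56) and was not called without 8 of the 10 rats, with an adjusted p up to 0.0896 without vehicle replicate 1. Klhl2, Larp4b and Bpnt2 lost their calls without 4, 3 and 8 of the 10 rats, with an adjusted p up to 0.0730, 0.0627 and 0.125, without vehicle replicates 1, 4 and 5. In Klhl2, Larp4b and Pik3ca vehicle replicate 3 was the lowest vehicle rat.

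**Figure D3:**
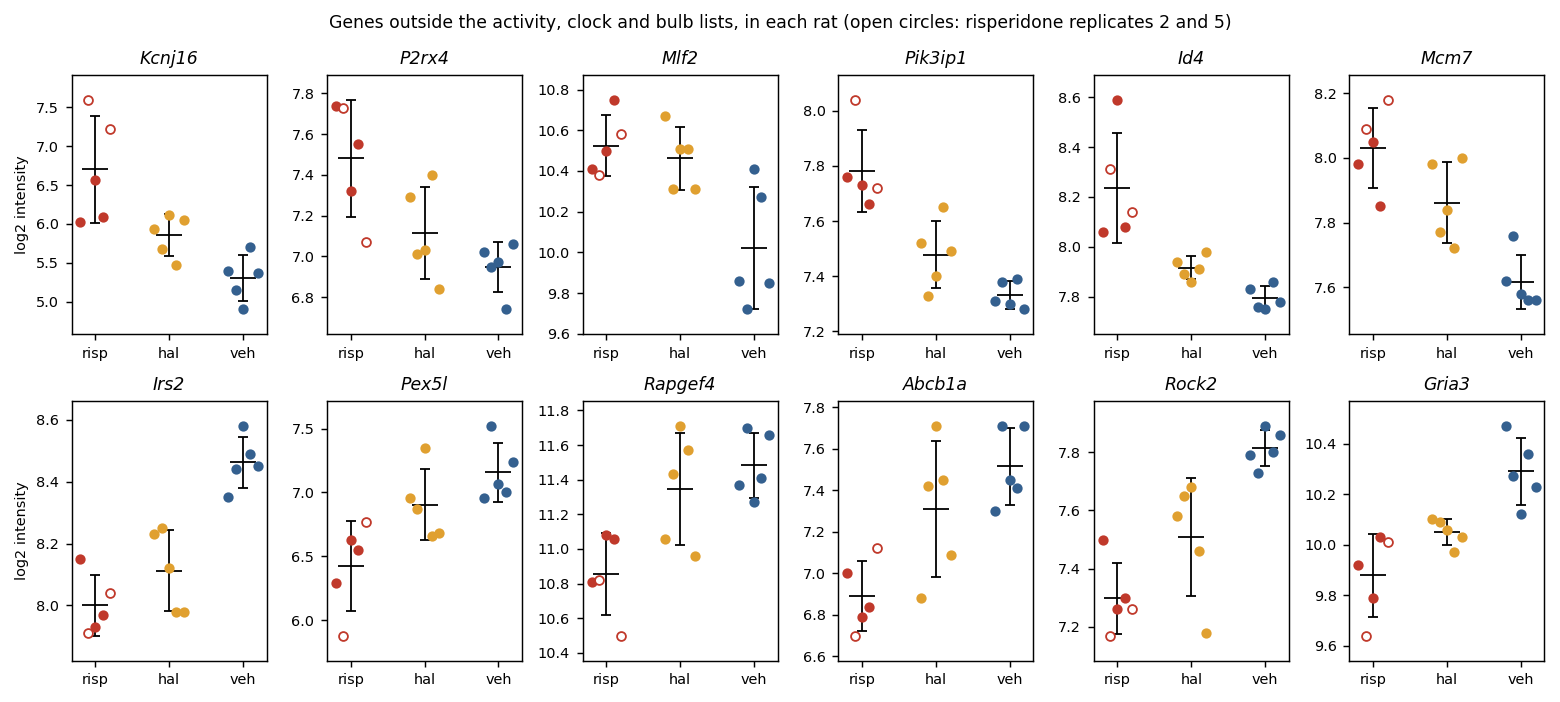
Log2 intensity (vertical axis, own scale for each gene) of 12 genes outside the activity, clock and bulb lists in risperidone (risp), haloperidol (hal) and vehicle (veh) rats. Points are rats, open circles are risperidone replicates 2 and 5, and bars give mean ± SD (n = 5). The top row rose and the bottom row fell; only in Mlf2 do the risperidone and vehicle rats overlap.

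A stricter group of genes was called with all arrays, without each of the 10 rats in turn and without replicates 2 and 5 together: 28 higher and 51 lower. Outside the activity, clock and bulb lists these were 26 and 37. Examples of the higher ones, picked after their values were seen, were Rcl1 (0.34), which processes ribosomal RNA, Lsm10 (0.38) of the histone mRNA machinery, the cap methyltransferase Pcif1 (0.36) and the ribosomal protein Rpl18 (0.30). Further examples were Acss1 (0.33), a mitochondrial enzyme that makes acetyl-CoA, Etfrf1 (0.38), a regulator of electron transfer flavoprotein, and Cln3 (0.39), a lysosomal membrane protein. Examples of the lower ones, picked in the same way, had log2 changes of -0.39 for the splicing regulator Ptbp3, -0.46 for Mbnl1, -0.44 for Pnn and -0.29 for Cpeb4, which binds cytoplasmic polyadenylation elements. Syne1, a giant protein that ties the nucleus to the cytoskeleton, changed by -0.50 (adjusted p = 2.85e-04), the kinase Nlk by -0.50 and Taf1, a subunit of the basal transcription factor TFIID, by -0.50. Nr3c1, the glucocorticoid receptor, had 8.80, 8.90, 8.71, 8.61 and 8.47 in risperidone rats, against 9.04, 9.05, 9.02, 9.08 and 8.99 in vehicle rats, so that every risperidone rat lay under the narrow vehicle range. Its log2 change was -0.34 (adjusted p = 0.0120). Of the other 16 measured glucocorticoid-responsive genes 0 were called, where 2.22% of all genes were called higher and 1.98% lower. These genes were selected by their calls, so the counts describe how steady the calls are. Of the stricter group, only Dbp, Homer1, Egr2, Fos, Nlk, Pnn and Ptbp3 were called with the bulb marker mean as a covariate over the frontal cortex arrays. That fit called 3 probe sets higher and 13 lower, against 121 and 251 with the frontal cortex arrays alone and no covariate.

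Of 16 measured endothelial and pericyte markers 15 had a change below 0, with a list median of -0.25 (-0.23 without replicates 2 and 5), and 3 fell past the threshold, with 1.98% of all genes called lower. Abcb1a, the P-glycoprotein pump that returns many drugs from the vessel wall to the blood, had log2 7.0, 6.70, 6.79, 6.84 and 7.12 in risperidone rats, against 7.30, 7.71, 7.45, 7.41 and 7.71 in vehicle rats. The groups were separated, and the change of -0.63 (adjusted p = 0.00825) was also -0.63 without replicates 2 and 5 (adjusted p = 0.0360). Its other probe set was not called. Slco1a4 and Slco1c1, transporters of organic anions and thyroid hormone at the barrier, fell by 0.51 and 0.42 (log2 changes -0.51 and -0.42) and were not called without the 2 rats, or without 6 of the 10 rats taken singly. Their adjusted p reached 0.104 and 0.152 when risperidone replicate 2, the lowest rat for both, was left out. Sox17, a transcription factor of arterial endothelium, fell by 0.71 with separated groups, and Cxcl12, a chemokine of vessels and meninges, fell by 0.72 (log2 changes -0.71 and -0.72), and neither was called without the 2 rats (adjusted p = 0.0535 and 0.0692). Cxcl12 was also lost without replicate 2 alone (adjusted p = 0.0512). The marker mean was 7.46, 7.11, 7.21, 7.54 and 7.57 in risperidone rats, against 7.58, 7.75, 7.52, 7.49 and 7.72 in vehicle rats, so the groups overlapped. In the haemoglobin list, Alas2 and Hbb were measured and not called. Hba-a3, an alpha-globin gene that was not among the measured members of that list, was called lower with all arrays (log2 change -0.51). Without replicates 2 and 5 its change was -0.53 and it was not called.

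All 17 measured microglia and complement genes had a change above 0 (median 0.20), yet only 1 was called, where 2.22% of all genes were called higher. This gene was Tyrobp, a signaling adaptor of microglia, at 0.39 (adjusted p = 0.0376). It was not called without replicates 2 and 5 (0.43, adjusted p = 0.0694) or in 6 of 10 fits that left out a rat, reaching an adjusted p of 0.100 when vehicle replicate 1 was absent. The mean of the 17 genes was 7.68, 8.09, 8.16, 8.08 and 7.80 in risperidone rats, against 7.63, 7.96, 7.68, 7.71 and 7.76 in vehicle rats, with overlap through vehicle replicate 2. Of 16 oligodendrocyte and myelin genes 15 were above 0 (median 0.20) and 0 were called; Cnp, a myelin enzyme, changed by 0.33 (adjusted p = 0.168). Of 16 astrocyte markers 0 were called, at a median of 0.03. Aqp4, the astrocyte water channel, stood at 8.59 to 8.73 in risperidone rats and 8.80 to 8.90 in vehicle rats, a separated difference of -0.19 that missed both thresholds (adjusted p = 0.0562). Of 12 interferon-responsive and 11 cytokine and NF-kB response genes 0 were called, with medians of 0.17 and 0.05.

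Of 19 measured dopamine, serotonin, adrenergic, histamine and muscarinic receptors 0 were called, at a median of -0.04. Over all genes 2.22% were called higher and 1.98% lower, so 0 calls in a list this short lies near that share. Htr2a, a serotonin receptor of cortical pyramidal neurons that risperidone blocks, had log2 7.24, 7.04, 7.08, 7.14 and 7.04 in risperidone rats, against 7.45, 7.24, 7.34, 7.32 and 7.45 in vehicle rats. Replicate 1 stood level with vehicle replicate 2, and the change of -0.25 had an adjusted p of 0.183. Of 8 genes for the synthesis, transport and breakdown of monoamines 0 were called, which also lies near the share over all genes.

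Several channel and synaptic genes showed small falls, most of which were not called without replicates 2 and 5. Over all genes 1.98% fell and 2.22% rose with all arrays, and 1.12% fell and 0.917% rose without replicates 2 and 5. Of 36 sodium and calcium channel and pump genes 4 fell with all arrays (median -0.14) and 0 without these rats. Scn1a, a sodium channel of fast-spiking interneurons, had log2 10.56, 9.73, 10.26, 10.38 and 10.30 in risperidone rats, against 10.86, 10.61, 10.71, 10.83 and 10.60 in vehicle rats. The groups were separated, with replicate 2 the lowest, and the change of -0.48 (adjusted p = 0.00787) was -0.34 without replicates 2 and 5 (adjusted p = 0.0835). Atp2b2, Cacna1a and Cacng2 fell by 0.34 to 0.38 (log2 -0.38 to -0.34), and they were lost without 5, 6 and 8 of the 10 rats taken singly, at an adjusted p up to 0.0893, 0.111 and 0.155 when risperidone replicate 2 was left out. Of 49 genes of the cytoskeleton and axonal transport 6 fell: kinesins Kif1a and Kif5c, filament proteins Nefl and Ina, and Ank2 and Map1b. Again 0 were called without the 2 rats. Their log2 changes with all arrays and without these rats were -0.47 and -0.43 for Kif1a, -0.37 and -0.43 for Map1b and -0.46 and -0.40 for Ank2. They were -0.30 and -0.26 for Ina, -0.265 and -0.23 for Nefl and -0.35 and -0.21 for Kif5c. Of 47 potassium channel genes, Kcnj16 and Kcnh2 rose and Kcna1 fell (log2 change -0.35), and of these Kcnj16 was called without the 2 rats. Kcnh2, the ERG channel, lost its call in 9 of 10 fits that left out a rat, reaching an adjusted p of 0.142 when vehicle replicate 1 was absent. Among 21 postsynaptic scaffolds Homer1 fell, and Homer2 and Dlg4, which encodes PSD-95, rose by 0.47 and 0.27; both rises were lost without the 2 rats, and each without 8 of the 10 rats singly, at an adjusted p up to 0.122 for Homer2 and 0.149 for Dlg4 when risperidone replicate 2 was left out. Of 19 glutamate receptor genes Gria3 and Grin2a fell (Gria3 alone without the 2 rats), and of 10 GABA receptor genes 0 were called. Pyramidal neuron markers were lower in the 2 blocks with bulb RNA: the mean of 11 such markers was 9.38, 9.13, 9.42, 9.40 and 9.22 in risperidone rats and 9.37 to 9.48 in vehicle rats. The mean of 14 GABAergic interneuron markers was 9.73 to 10.17 in risperidone rats and 9.57 to 9.89 in vehicle rats, and Calb2 and the vesicular transporter Slc32a1 rose with all arrays only. The part of these markers in the falls was not tested.

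Of 67 measured respiratory chain subunits 61 were above 0, with a median of 0.08 in both versions, and 0 were called; the median over the shortest genes of the array, described below, was also 0.08. For the counts that follow, 2.22% of all genes were called higher and 1.98% lower, or 0.917% and 1.12% without replicates 2 and 5. Of 27 genes of glycolysis and glucose transport 16 were above 0 (median 0.03), and the lactate and pyruvate carrier Slc16a7 and the regulator Pfkfb3 fell by 0.34 and 0.28 (log2 changes -0.34 and -0.28), with 0 called without replicates 2 and 5. Without vehicle replicate 1 neither was called (adjusted p = 0.0694 and 0.0842). Ndufs7, a subunit of complex I, was separated at 10.76 to 10.93 in risperidone rats and 10.58 to 10.72 in vehicle rats, and its change of 0.20 (adjusted p = 0.0122) was under 1.2-fold. Of 39 cytosolic ribosomal proteins 36 were above 0 (median 0.14, and 0.13 without replicates 2 and 5), and Rpl18 and Rpsa rose by 0.30 and 0.28; Rpsa lost its call in 5 of 10 fits that left out a rat, reaching an adjusted p of 0.0888 when risperidone replicate 3 was absent. Rpl18 had log2 11.55, 11.73, 11.77, 11.58 and 11.58 in risperidone rats, against 11.32, 11.42, 11.28, 11.33 and 11.37 in vehicle rats, with no overlap. Of 36 proteasome subunits 30 were above 0 and 0 were called. Of 45 splicing factors and RNA-binding proteins Celf2, Prpf4b and Fmr1 fell, by 0.30 to 0.51 (log2 -0.51 to -0.30), and 4 fell without replicates 2 and 5. With all arrays these 3 calls were lost without 6, 6 and 7 of the 10 rats singly, at an adjusted p up to 0.0898, 0.0938 and 0.140, without vehicle replicates 5, 2 and 1. Of 35 genes of cholesterol and lipid synthesis, Mvd, an enzyme of the mevalonate pathway, and Abca1, a cholesterol exporter, rose by 0.29 and 0.37, and Mvd was called in both versions (0.36 without the 2 rats, adjusted p = 0.0459). Each was lost without 7 of the 10 rats singly, at an adjusted p up to 0.104 for Mvd without vehicle replicate 5 and 0.155 for Abca1 without risperidone replicate 2. Of 33 heat shock and unfolded protein response genes 0 were called with all arrays. The median over all genes was 0.03 with all arrays and 0.04 without the 2 rats, and with the arrays centered on their medians the median over probe sets was -0.01 where it was 0.01 before.

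**Figure D4:**
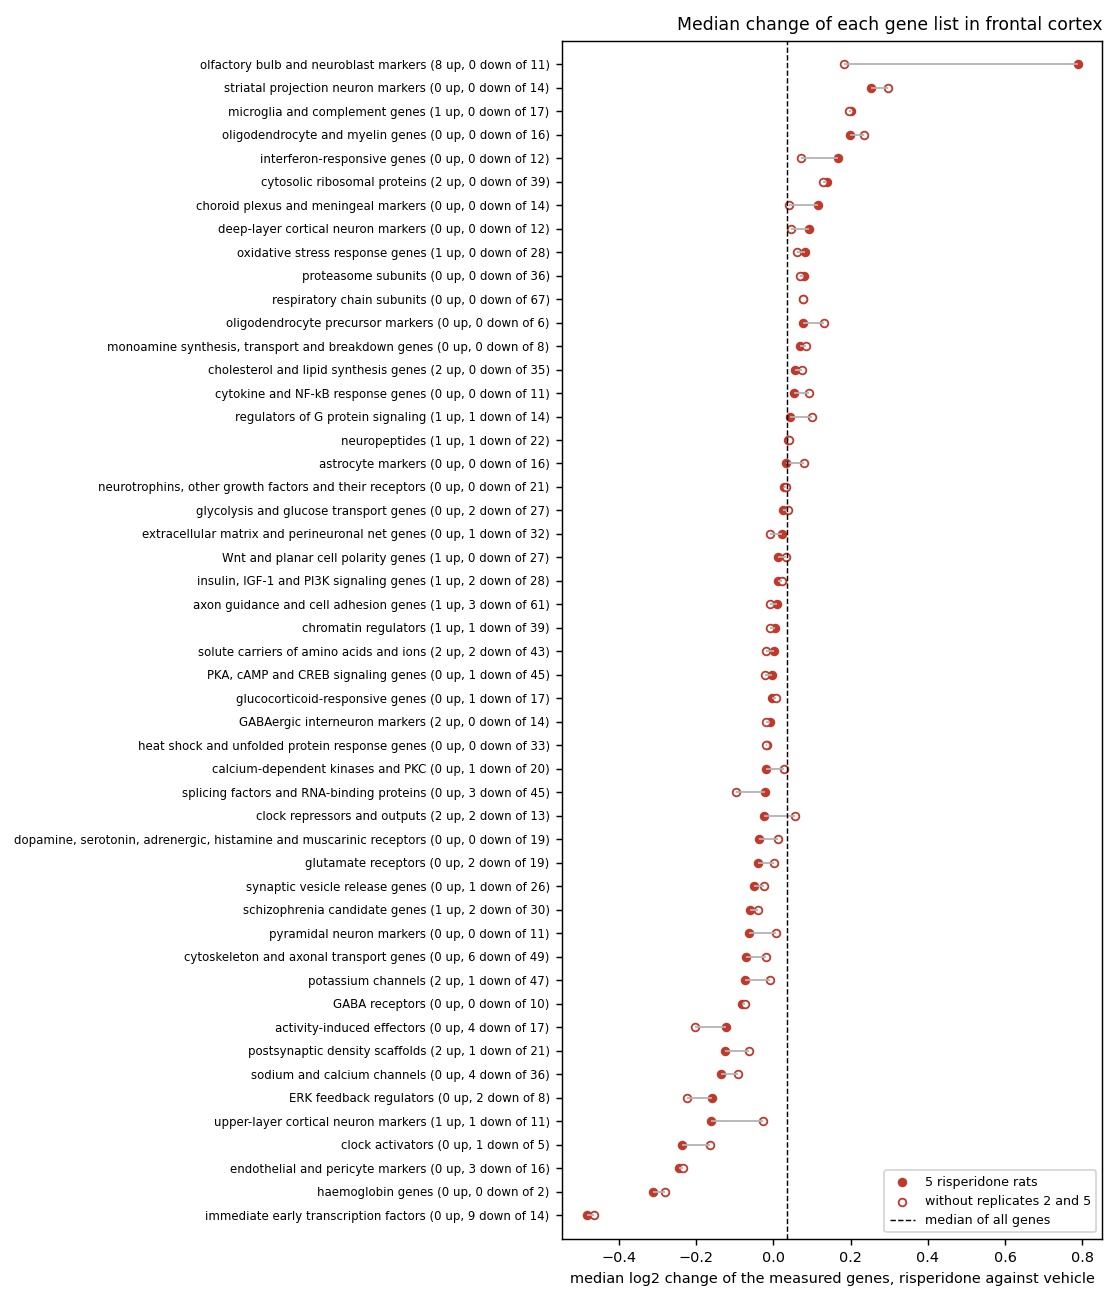
Median log2 change of the measured genes of each of 50 gene lists (vertical axis) in frontal cortex, risperidone against vehicle (horizontal axis). Filled circles use 5 risperidone rats, open circles leave out replicates 2 and 5, the dashed line is the median of all genes, and each label counts the genes called higher (up) and lower (down) of those measured. Immediate early transcription factors are lowest at -0.48 and olfactory bulb markers highest at 0.79, and at 0.18 without the 2 rats.

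Long genes fell more often and short genes rose more often. Gene span, from the first to the last base on GRCr8 with introns included, was known for 10214 of the 10248 genes (99.7%). The median span was 14.3 kb for genes that rose, 75.5 kb for genes that fell and 25 kb for all genes. Genes were put in 5 groups of equal size by span. In the group of shortest genes, up to 8.38 kb, 77 rose and 26 fell, and in the group of longest genes, above 78.8 kb, 36 rose and 99 fell. Without replicates 2 and 5 these counts were 37 and 15 among the shortest and 8 and 42 among the longest. Lower genes outside the activity lists had a median span of 84.0 kb. The median log2 change in frontal cortex was 0.076 for the shortest genes and -0.018 for the longest. The same direction was seen elsewhere. Risperidone changes had medians of 0.061 (shortest) and -0.007 (longest) on the hippocampus arrays, while the striatum arrays gave -0.0002 and -0.039. Haloperidol changes in frontal cortex had medians of -0.014 and -0.058. Whether these slopes differ was not tested. In single rats, the median of the shortest genes minus that of the longest, relative to the mean of the vehicle rats, was 0.061, 0.177, 0.162, 0.076 and 0.013 on the log2 scale in risperidone rats 1 to 5. It was 0.009 to 0.073 in haloperidol rats and -0.026 to 0.034 in vehicle rats. Risperidone replicates 2 and 3 were highest and replicate 5 lay within the vehicle range. The ends of control transcripts overlapped between the treatments, as given above, and the part of RNA quality in the pattern was not tested. A gene counted as called when any of its probe sets was. The part of the number of probe sets per gene in these counts was not tested either.

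**Figure D5:**
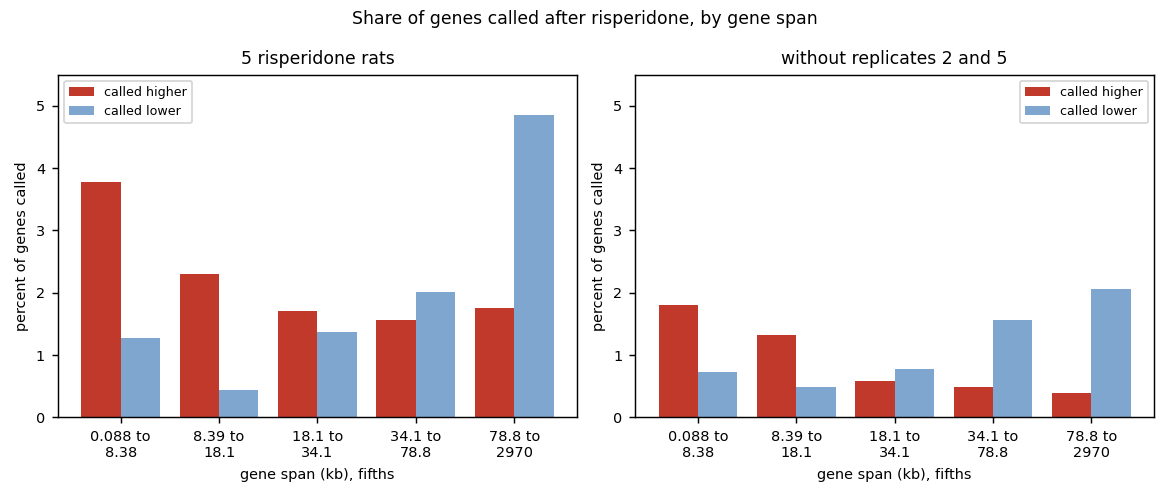
Percent of genes called higher or lower after risperidone in frontal cortex (vertical axis) in 5 groups of equal size by gene span in kb (horizontal axis), with 5 risperidone rats (left) and without replicates 2 and 5 (right). Among the shortest genes 3.77% were called higher and 1.27% lower, and among the longest 1.76% higher and 4.85% lower.

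Haloperidol was set beside risperidone in the same region. Both comparisons use the same 5 vehicle rats, so their values are given side by side only. Haloperidol left 10 probe sets higher (0.0537%) and 23 lower (0.124%) than vehicle. The mean of 14 immediate early transcription factors was 7.84 to 8.34 after risperidone, 8.02 to 8.42 after haloperidol and 8.50 to 8.97 after vehicle. Activity-induced effectors had medians of 9.11, 9.09 and 9.40 in the same order. Of the 12 genes that fell most after risperidone, 3 were called after haloperidol too. Kcnj16 changed by 1.40 after risperidone and 0.55 after haloperidol (adjusted p = 0.321), Pik3ip1 by 0.45 and 0.15 (adjusted p = 0.336), P2rx4 by 0.53 and 0.17 (adjusted p = 0.577) and Abcb1a by -0.63 and -0.21 (adjusted p = 0.525). Irs2 changed by -0.46 and -0.35 and was called after haloperidol too (adjusted p = 0.0126), and Mlf2 by 0.50 and 0.44 (adjusted p = 0.0848 after haloperidol). Tested directly, 101 probe sets (0.543%) were higher and 42 (0.226%) lower after risperidone than after haloperidol. In the class outside the activity, clock and bulb lists, 10 of the 59 higher and 3 of the 75 lower genes differed between the drugs. These genes were chosen by their change after risperidone, which enters the difference, so the counts are a description and no test. Id4 averaged 8.24 ± 0.22 in risperidone rats and 7.91 ± 0.05 in haloperidol rats (SD, n = 5 each), a difference of 0.32 (adjusted p = 0.0370). Pik3ip1 differed by 0.30 (adjusted p = 0.0319), Chrac1 by 0.34 (adjusted p = 0.0383), Bace2 by 0.41 (adjusted p = 0.0423), C10h17orf58 by 0.445 (adjusted p = 0.0299) and Rapgef4 by -0.49 (adjusted p = 0.0423). These counts moved widely with the rats left out. Without risperidone replicates 2 and 5, 1 probe set was higher and 0 were lower (2301 and 666 at an unadjusted p under 0.05 by limma). Without risperidone replicate 2 alone they were 2 and 0 (2055 and 650), and without risperidone replicate 3 alone 3 and 0. Without haloperidol replicate 2 or 3 they were 4 and 0 or 6 and 0, whereas 307 were higher without risperidone replicate 4. With the frontal cortex arrays fitted alone, 0 probe sets differed between the drugs in either direction (2408 and 832 at an unadjusted p under 0.05 by limma).

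The change in frontal cortex was also tested against that in the other regions of the same rats. It exceeded the change in striatum in 369 probe sets (1.98%) and lay below it in 179 (0.962%), and the counts against hippocampus were 82 (0.441%) and 163 (0.876%). Without replicates 2 and 5 they were 90 and 31 against striatum and 24 and 69 against hippocampus. With no rat block they were 27 and 14, and 1 and 6, and without replicate 2 alone 144 were higher than in striatum. Rapgef4 differed from both, with a change of -0.63 in frontal cortex where striatum had 0.19 and hippocampus 0.11 (differences -0.82 and -0.74, adjusted p = 0.00554 and 0.0152). Ptgs2 likewise changed by -1.09 in frontal cortex, against -0.08 in striatum and -0.10 in hippocampus (adjusted p = 0.0106 and 0.0165). Mcm7 and Id4 rose in frontal cortex and changed by 0.05 and -0.001 in striatum (adjusted p = 0.0108 for each difference), and their changes of 0.23 and 0.24 in hippocampus did not differ past the threshold (adjusted p = 0.243 and 0.310). Nr3c1 and the zinc transporter Slc39a10 changed by -0.34 and -0.35 in frontal cortex and by 0.11 and 0.07 in hippocampus (adjusted p = 0.0200 and 0.0152). P2rx4 changed by 0.53 in frontal cortex, while striatum had 0.53 (adjusted p = 0.0116) and hippocampus 0.52 (adjusted p = 0.0729), with differences of -0.001 and 0.016. Of the 59 higher and 75 lower genes outside the activity, clock and bulb lists, 14 and 13 differed from striatum, and 9 and 24 from hippocampus. They were chosen by their change in frontal cortex, which enters each difference, so these counts describe the genes and test nothing.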

How the data were processed

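Total RNA of 3 brain regions was hybridized to 45 Affymetrix rat arrays. The authors deposited linear intensity values from Robust Multi-array Average (RMA), run in R 2.7.2 per the labels, which corrects background, normalizes between arrays and summarizes each probe set. Because RMA aligned all arrays, a broad shift would be absorbed. Arrays have no read depth, and their number limits the precision. Each replicate is a different rat by its number in the labels.

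From the log2 intensities, control probe sets and those with a mean under the 40th percentile were dropped. A mean for each of 9 combinations of region and treatment was estimated in limma 3.58.1 (R 4.3.3), treating samples of 1 rat as correlated (0.226, and 39.9 degrees of freedom in total), with Benjamini-Hochberg adjustment over 18609 probe sets. Calls required adjusted p below 0.05 together with a change of 1.2-fold or more. Symbols came from the platform annotation, updated through RefSeq (GRCr8). A gene takes the value of its probe set with the smallest p, and list medians use its brightest probe set.

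Genes were named by rule: 12 in each direction by size of change, 12 in each direction among those outside the activity, clock and bulb lists that were called in both versions, the called members of 50 lists (4 where over 5 were called in a direction, and the smallest p where none was), and 5 for each difference between drugs or regions. A gene may fall under several parts. Syne1, Nlk, Taf1 and others of the stricter group were chosen after their values were seen. All members and lists were chosen with earlier results of these data known. In simulated data of this design, limma recovered 90 of 100 probe sets at 1.5-fold and 97 of 100 at 2-fold, and made 10 calls among unchanged ones. The simulation gave each probe set the same normal spread in all groups and held no bulb RNA. It therefore does not give the error rate of the real calls. Alternatives covered filters, normalization, the model and left-out rats.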

Additional observations from a re-analysis of the deposited data

Results flagged for a closer look

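In 14 of 250 groups of 5 rats, 1 rat stood apart from the other 4, with a gap to its nearest neighbor of over 0.71 of the group's range; chance alone gives about 1 in 20 groups. Among risperidone rats, replicate 1 was high for Arc (log2 8.16) and Nr4a1 (8.68), replicate 2 was high for Pik3ip1 (8.04) and Psmd5 (9.19) and low for Slco1c1 (8.89), and replicate 5 was high for Sncg (7.26) and Rims2 (8.06). Among vehicle rats, replicate 3 was low for Pik3ca (9.00), Klhl2 (9.67) and Larp4b (8.10) and high for Etv5 (8.97), and replicate 5 was low for Syt6 (5.71), Pfkfb3 (7.28) and Bex4 (7.12).

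The change after risperidone in frontal cortex differed from that in striatum (limma, adjusted p under 0.05 and at least 1.2-fold) in 25 of the named genes. As frontal cortex minus striatum on the log2 scale, it was higher for Cdhr1 (2.52), Pbx3 (1.91), Kcnj16 (1.195), Slc35d3 (1.51), Pcp4l1 (1.39), Krt71 (1.14), Meis1 (1.41), Chrac1 (0.46), Id4 (0.44), Mcm7 (0.36), Gfer (0.45), Rxrg (0.84), Syt6 (1.18), Dlg4 (0.35), Rerg (0.94), Map3k1 (0.85) and Bex4 (0.82). It was lower for Fos (-1.32), Ptgs2 (-1.01), Pex5l (-0.67), Rapgef4 (-0.82), Rap2c (-0.61), Larp4b (-0.58), Scn1a (-0.49) and Robo3 (-0.85). Of these, Cdhr1, Pbx3, Kcnj16, Slc35d3, Pcp4l1, Krt71, Meis1, Mcm7, Rxrg, Syt6, Rerg, Map3k1 and Bex4 had risperidone replicates 2 and 5, the rats with most olfactory bulb RNA, as the highest of all risperidone and vehicle rats in frontal cortex; the part of that RNA in these differences was not tested.

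The change differed from that in hippocampus in 17 of the named genes. It was higher in frontal cortex for Krt71 (1.18), Myo16 (1.195), Gfpt2 (0.55), Rerg (1.09) and Map3k1 (0.87), and lower for Ptgs2 (-0.98), Rapgef4 (-0.74), Bpnt2 (-0.77), Rap2c (-0.62), Vgf (-0.54), Hlf (-0.56), Aqp4 (-0.36), Rims2 (-0.53), Irs2 (-0.34), Rgs17 (-0.54), Nr3c1 (-0.45) and Slc39a10 (-0.42). Without risperidone replicates 2 and 5, the frontal cortex changes of Krt71, Myo16, Rerg and Map3k1 were 0.48, 0.32, 0.28 and 0.38. None of these genes was then called against vehicle. The part of olfactory bulb RNA in their differences was not tested.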

How the results depend on the processing

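For risperidone against vehicle (281 probe sets higher and 351 lower), the higher count moved to 121 with the frontal cortex arrays fitted alone, to 173 with arrays centered on their medians, to 105 with quantile normalization of the frontal cortex arrays and to 178 with 32 added before the log. With the 10 arrays fitted alone the counts were 50 and 144, without risperidone replicates 2 and 5 they were 112 and 172, and without replicates 1, 2 and 5, a setting chosen after seeing the data, 84 and 71. With the bulb marker mean as a covariate over the frontal cortex arrays 3 were higher (Mfhas1, Dbp and Zfp395) and 13 lower, among them Homer1, Egr2, Fos, Nlk, Pnn and Ptbp3. Other filters, priors, array weights and the fit without the rat block kept both counts within 1.5 times. Leaving out 1 rat at a time gave 107 (without risperidone replicate 2) to 403 higher and 171 (without vehicle replicate 1) to 411 lower. Replicate numbers only name the rats: samples of the same number correlated at -0.383 to 0.162 after removal of group means, and with the replicate block 0 were higher and 2 lower (1610 and 1451 at an unadjusted p under 0.05, limma). Of 125 named genes 0 reversed a call in the settings run, and of 108 called ones 52 were called without each rat. The causes of these moves were not tested.

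For risperidone against haloperidol (101 and 42), 86 were lower with no filter, and without replicates 2 and 5 the counts were 1 and 0; without single rats they were 2 to 307 and 0 to 138 (610 to 736 lower at an unadjusted p under 0.05 where the count was 0). With the frontal cortex arrays alone they were 0 and 0 (2408 and 832 unadjusted, limma), as with quantile normalization (1217 and 1364) or the bulb covariate (1811 and 600). For frontal cortex minus striatum (369 and 179) they were 192 and 116 with no filter, 27 and 14 with no rat block, 90 and 31 without replicates 2 and 5, and 144 to 560 and 77 to 294 without single rats. For frontal cortex minus hippocampus (82 and 163) they were 45 and 64, 1 and 6, and 24 and 69 in the same order, and 10 to 102 and 29 to 259 without single rats. For haloperidol against vehicle (10 and 23) they were 0 and 1 with the frontal cortex arrays alone (912 and 1621 at an unadjusted p under 0.05), 6 higher with no rat block, and 1 to 14 and 9 to 29 without single rats. Arrays give no depth, and dim probe sets, which understate folds, were left out.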
